A study of Mus musculus with 75 samples.

Results

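Lung RNA of BLEO-IPF mice on day 21 after bleomycin (BLEO) administration was compared with lung RNA on day 14, the day with the most genes changed against controls. The comparison rests on the 12 mice labelled day 21 and the 12 labelled day 14, which are 24 of the 75 mice sequenced, and their columns in the deposited table were found by the library names in the labels. All 75 were male C57BL/6JRj mice aged 12 to 14 weeks at dosing, and both groups had received a single dose of BLEO into the trachea. Only mice that had lost 5% to 17% of their body weight by day 6 were taken into the study, so milder and more severe cases are not represented. CTRL mice (n = 10) are labelled saline in the sample titles and the series' design text, while the treatment protocol calls them untreated, and they enter here only as a reference for the level of a gene. RNA came from the inferior lobe, taken after the airspaces had been rinsed with saline, so cells that wash out of the airspaces were partly removed. Each mouse gave 1 library and was killed at its time point, so days differ between mice and not within them.

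BLEO damages the alveolar epithelium, which is followed by inflammation, by fibroblasts that deposit collagen, and after a single dose by slow recovery. Alveolar type 2 cells make surfactant and divide to replace the flat type 1 cells. Resident alveolar macrophages clear surfactant, while macrophages that arise from blood monocytes enter the injured lung and are tied to scarring. More genes differed from CTRL on day 14 than on any other day, and the question asked of the next step was which genes moved first after it. Not every part of the response was highest on day 14. In whole-lung RNA, fewer cells of a type and less RNA per cell cannot be told apart.

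Counts per library ranged from 9859808 to 13419601 on day 14 and from 9800483 to 12640351 on day 21. The type 2 cell marker Sftpc lay between 3342 and 18613 CPM (read counts relative to each library's TMM-scaled total) in all 75 libraries, and Ager, Scgb1a1, Cdh5 and Marco were also detected in each. The spread between mice was wider on day 14 than in any other group, with a median SD over genes of 0.275 on the log2 CPM scale, against 0.225 on day 21 and 0.169 in CTRL mice. Mice 1, 3 and 8 of day 14 stood apart. Their summed red blood cell genes were at 275, 356 and 225 CPM, against 590 to 1757 CPM in the other 21 mice, and their summed type 2 cell genes were at 11405, 12588 and 13473 CPM, against 14850 to 44007 CPM. Without these 3 mice the median SD of day 14 was 0.219. The labels name no batch that sets them apart.

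Day 21 and day 14 were close. Of the 16221 genes tested, 167 (1.03%) differed by edgeR's quasi-likelihood test at an adjusted p under 0.05, with 73 higher on day 21 (0.45%) and 94 lower (0.579%). Against CTRL the same fit called 10118 genes on day 14 (62.4%, with 32.4% higher and 29.9% lower), 8788 on day 21 (54.2%, with 28.3% higher and 25.8% lower) and 7023 on day 28 (43.3%). Most of the 167 differences were small, with a median absolute log2FC of 0.611, and 44 of them reached 1 on the log2 scale. The median log2FC over all genes was -0.005. Not one of the 16221 genes, 0% of those tested, separated the days completely in CPM, so every gene named here had overlapping groups.

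How many genes passed depended strongly on which mice entered. The fit took its spread from all 7 groups, and a fit of days 14 and 21 alone called 0 of 14896 genes, with 1738 at an unadjusted p under 0.05 and a lowest adjusted p of 0.0901. With all groups in the fit and mouse 8 of day 14 left out, 5 genes were called. Leaving out mouse 1 of day 14 gave 37 genes, mouse 3 gave 47, and leaving out mouse 5 of the same day gave 561. Over all 24 mice left out in turn, the number was under the full count by more than 1.5 times in 12 cases and over it by as much in 8. Without mice 1, 3 and 8 together edgeR called 0 genes, with 775 at an unadjusted p under 0.05. DESeq2 on all mice called 311 genes, which held all 167, and limma voom with a weight per mouse called 119, which shared 68 of the 167. Values without these 3 mice are therefore given beside many of the genes that follow, and none of them was called there.

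**Figure D1:**
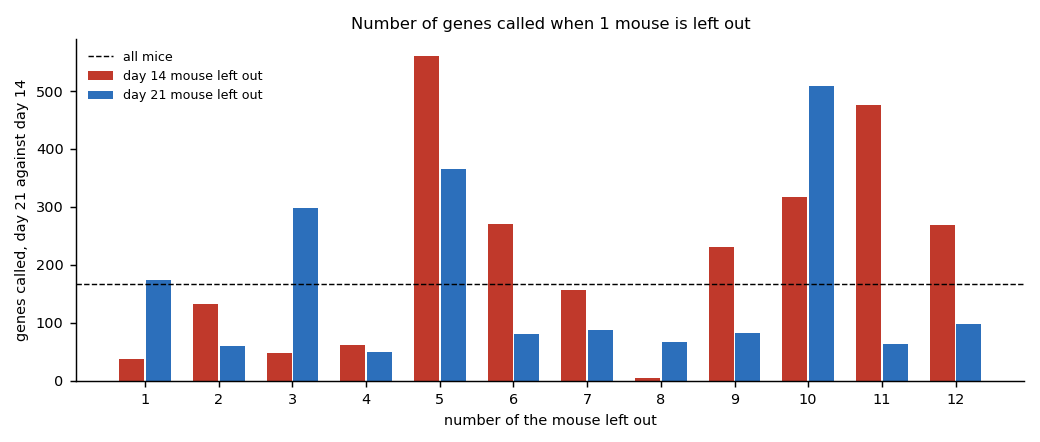
Number of genes called between day 21 and day 14 (vertical axis) when 1 mouse of day 14 (red bars) or of day 21 (blue bars) is left out of the fit, by mouse number. The dashed line is the 167 genes called with all mice. Leaving out mouse 8 of day 14 left 5 genes, and leaving out mouse 5 of day 14 gave 561.

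A2m, Cd177, Lpar1 and Gria3 were lower and Rufy4 was higher on day 21, and these 5 were the genes called in all 24 fits that left out 1 mouse. A2m (ENSMUSG00000030111, GRCm38 chromosome 6, 121635376 to 121679227) encodes alpha-2-macroglobulin, a broad inhibitor of proteases. It ranged from 1.76 to 18.9 CPM on day 14 (median 4.33) and from 0.408 to 3.18 CPM on day 21 (median 1.71). The groups overlapped, but 8 of the 12 day 14 mice lay above every day 21 mouse. Its log2FC was -2.11 ± 0.358 (SE from the fit of all 7 groups, n = 12 and 12, edgeR adjusted p = 0.000849), and -1.39 without mice 1, 3 and 8. CTRL mice had a median of 0.302 CPM, and the gene stood 2.62 above CTRL on the log2 scale on day 21, against 4.73 on day 14.

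Lpar1 (ENSMUSG00000038668, chromosome 4, 58435255 to 58553898), a receptor for lysophosphatidic acid that is known for recruiting fibroblasts in injured lung, ranged from 27.1 to 75 CPM on day 14 (median 47.4) and from 25.3 to 39.9 CPM on day 21 (median 29.4). All 12 day 21 mice lay below the day 14 median, and 8 day 14 mice lay above the highest day 21 mouse. The log2FC was -0.685 ± 0.118 (SE; edgeR adjusted p = 0.000849) and -0.46 without mice 1, 3 and 8. On day 21 the gene was at the level of CTRL, with a median of 31.5 CPM in CTRL mice and a log2FC of 0.01 against them (adjusted p = 0.958). Its level on day 28 had a median of 28.6 CPM, and the step from day 21 to day 28 was 0.01. A p that misses the threshold does not show that the levels are equal.

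Cd177, a surface protein of neutrophils, ranged from 9.94 to 459 CPM on day 14 (median 41.9) and from 5.3 to 39.5 CPM on day 21 (median 15). The 3 highest values belonged to mice 1, 3 and 8 of day 14, and the log2FC of -2.33 ± 0.409 (SE; edgeR adjusted p = 0.000957) was -0.81 without them. Cd177 is not in the neutrophil list below and did not follow it in these mice. In mice 1 and 8 Cd177 had 459 and 125 CPM, whereas the summed neutrophil genes had 333 and 715 CPM. Gria3, a subunit of AMPA glutamate receptors, fell less and more evenly, from a median of 46.9 CPM (37.6 to 58.5) to 34.7 CPM (28.2 to 46.6). Its log2FC was -0.41 ± 0.0884 (SE; edgeR adjusted p = 0.0139) and -0.36 without the 3 mice. In CTRL mice Gria3 ranged from 31.5 to 52.7 CPM, which overlaps both days. On day 42 it ranged from 22.8 to 30.3 CPM, below every CTRL mouse. Rras2, a small GTPase, was with Serpina3c, Lpar1, Gria3 and A2m among the genes that shared the lowest adjusted p in the fit of the 2 days alone (0.0901), with a median of 75.1 CPM on day 14 and 60.4 CPM on day 21, and 9 of the 12 day 14 mice above every day 21 mouse. Gria3 and Rras2 were picked with their values in view.

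**Figure D2:**
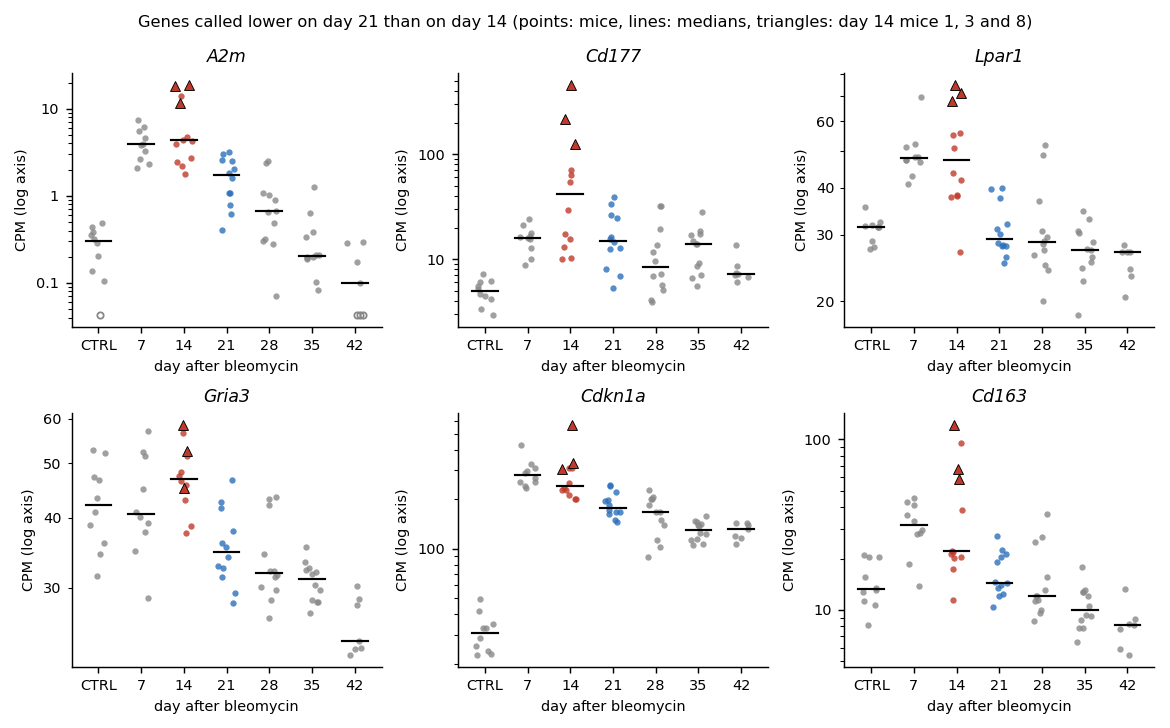
CPM on a log axis in every mouse (points) for 6 genes that were lower on day 21 than on day 14, for CTRL mice and each day after BLEO. Lines are group medians, triangles are mice 1, 3 and 8 of day 14, and open circles at the foot of a panel are mice at 0. Day 14 (red) and day 21 (blue) overlap in each panel, and the triangles are the 3 highest day 14 points for Cd177 and Lpar1.

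Of 25 tested p53 targets and cell cycle inhibitors, 2 fell and none rose, against 0.579% of all genes called lower. The list's median log2FC was -0.17, and -0.10 without mice 1, 3 and 8, against -0.005 over all genes. Cdkn1a (ENSMUSG00000023067, chromosome 17, 29090976 to 29100727), the inhibitor p21 that p53 induces after DNA damage, ranged from 200 to 566 CPM on day 14 (median 241) and from 145 to 244 CPM on day 21 (median 177). In all, 9 of the day 21 mice lay below every day 14 mouse. The log2FC was -0.585 ± 0.131 (SE; edgeR adjusted p = 0.0149) and -0.36 without mice 1, 3 and 8. With 30.8 CPM in CTRL mice, Cdkn1a on day 21 was still 2.56 above CTRL on the log2 scale. On day 7 it ranged from 234 to 425 CPM. Summed over the list, the medians were 1947 CPM on day 7, 1833 CPM on day 14 and 1615 CPM on day 21. The list's median log2FC against CTRL was 0.471 on day 7 and 0.602 on day 14, so the 2 measures differ on whether the list had fallen by day 14. Mdm2, the p53 target that degrades p53, changed by -0.26 ± 0.0562 (SE; adjusted p = 0.0143), and by -0.13 without the 3 mice.

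Single genes that macrophages are known to express were called lower, while the list of monocyte-derived macrophages had no call by edgeR. Cd163, the macrophage receptor for hemoglobin bound to haptoglobin, ranged from 11.4 to 122 CPM on day 14 (median 22) and from 10.4 to 27.3 CPM on day 21 (median 14.4). Its log2FC was -1.36 ± 0.258 (SE; edgeR adjusted p = 0.00381) and -0.82 without the 3 mice, and on day 21 it was 0.19 from CTRL on the log2 scale (adjusted p = 0.568). Fcna, a ficolin that binds microbial sugars, had a log2FC of -1.62, and the chemokines Ccl8 and Cxcl13 had -1.10 and -1.57. Without mice 1, 3 and 8 the differences of these 3 genes were -0.74, -0.90 and -0.67. Vsig4, a complement receptor of tissue macrophages, and F13a1, the coagulation factor XIII subunit that macrophages also make, had -1.76 and -1.09, and Ms4a4a had -1.26. Without the 3 mice these values were -0.68, -0.44 and -0.38. These last 3 were picked with their values in view. Of the 32 tested genes of monocyte-derived and lipid-associated macrophages, 0 were called by edgeR, 2 by DESeq2 and 0 by voom with weights, with 11 at an unadjusted p under 0.05 and a median of -0.23 that was -0.09 without the 3 mice. Spp1, the secreted protein osteopontin that marks these cells, had medians of 2669 and 1770 CPM and a log2FC of -0.49 (95% interval -1.31 to 0.33) that turned to 0.02 without the 3 mice.

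Among the 10 largest falls that the naming rule took were also Doc2b, a calcium sensor of exocytosis (-2.31), Pappa, a protease that frees insulin-like growth factors (-1.55), and Fkbp5, a chaperone of steroid receptors (-1.26). Doc2b on day 14 reached 41.7 CPM with a median of 2.1 CPM, and its difference was -0.84 without mice 1, 3 and 8, where Pappa had -0.58 and Fkbp5 -0.63. Serpina3m and Serpina3h had -1.75 and -1.18, but they belong to a cluster of near-identical serpin genes among which reads could be split. The metal-binding metallothioneins Mt1 and Mt2, picked with their values in view, had -1.10 and -1.56, and without the 3 mice -0.19 and -0.32.

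Neutrophil genes were the list with the lowest median among those of lung cells, and that position rested on the 3 mice. Of 12 tested of 17 genes found, 3 fell and none rose, against 0.579% of all genes called lower, and the median was -0.62. Without mice 1, 3 and 8 of day 14 it was 0.06, and voom with weights per mouse called 0 of the 12. Retnlg, a resistin-like protein of neutrophils, ranged from 3.45 to 90.3 CPM on day 14 with a median of 5.25, and from 2.36 to 7.7 CPM on day 21 with a median of 4.45. Il1r2, a decoy receptor for interleukin 1, and Ngp, a granule protein present at under 1 CPM in most mice, had log2FCs of -1.50 and -2.71, and S100a8 had -0.80 (adjusted p = 0.15). Summed over the list, day 14 ranged from 136 to 715 CPM (median 190) and day 21 from 165 to 243 CPM (median 197), so the medians were close and the day 14 range was the wider one.

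Surfactant and other type 2 cell genes rose. Of the 24 genes of that list, 5 were higher on day 21 and none was lower, against 0.45% of all genes called higher. DESeq2 called 9 of them and voom with weights 8. In 23 of the 24 the log2FC was positive, against 7885 of the 16221 genes tested, and the median was 0.48. It was 0.28 without mice 1, 3 and 8. Low sums of this same list helped to set those mice apart, so values of its genes without them are not an independent check. Sftpa1 (ENSMUSG00000021789, chromosome 14, 41131782 to 41136452), which encodes surfactant protein A, ranged from 693 to 3460 CPM on day 14 (median 1508) and from 1139 to 4340 CPM on day 21 (median 2867). The groups overlapped over most of their range, with 5 day 14 mice below every day 21 mouse. The log2FC was 0.77 ± 0.209 (SE; edgeR adjusted p = 0.0468) and 0.53 without the 3 mice. Slc34a2 (ENSMUSG00000029188, chromosome 5, 53038081 to 53071664), the phosphate transporter of type 2 cells, had medians of 1064 and 1769 CPM and a log2FC of 0.61 ± 0.157 (SE; edgeR adjusted p = 0.0364), and 0.41 without the 3 mice.

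Lpcat1, which makes the main surfactant lipid, rose by 0.52 and Elovl1, which lengthens fatty acids, by 0.54, and Dram1, a lysosomal protein of autophagy, by 0.36 on the log2 scale. Muc1, an epithelial mucin outside the list that was picked with its values in view, rose by 0.60. Sftpc, surfactant protein C, had medians of 6910 and 11939 CPM and a log2FC of 0.61 (95% interval 0.26 to 0.96) that missed the threshold (adjusted p = 0.0599), and Nkx2-1, the transcription factor that drives surfactant genes, had 0.40 (adjusted p = 0.0535). Ctsh, a cathepsin of lamellar bodies, was the member with a negative value, -0.36 (adjusted p = 0.145). Against CTRL, 12 of the 24 genes were lower and 4 higher on day 14, and 3 were lower and 10 higher on day 21. Of all genes, 29.9% were lower and 32.4% higher than CTRL on day 14, and 25.8% and 28.3% on day 21. Sftpa1 was -1.19 against CTRL on day 14 and -0.42 on day 21 (adjusted p = 0.0952). The list's median against CTRL moved from -0.32 to 0.20 and then stayed between 0.22 and 0.37 through day 42. Of 20 type 1 cell genes, 0 were called by edgeR, DESeq2 or voom with weights (4 at an unadjusted p under 0.05 by edgeR), and the median was 0.02.

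The 250 bases before the starts of Sftpa1 and Slc34a2 (RefSeq, GRCm38.p6, plus strand) are shown since both are type 2 cell genes that rose. For Slc34a2 the RefSeq start lies inside the gene's span given above, downstream of its first annotated base. Capitals mark the letters CAAGTG or, read from the other strand, CACTTG, the core that NK2 homeodomain proteins such as NKX2-1 are known to bind. The motif was chosen after the values were seen. It occurred at 202 and 14 bases before the start of Sftpa1 and not in the window of Slc34a2, and it was in 11.6% of all 32851 such windows. A match describes the letters only.
Sftpa1, chr14:41131538-41131787: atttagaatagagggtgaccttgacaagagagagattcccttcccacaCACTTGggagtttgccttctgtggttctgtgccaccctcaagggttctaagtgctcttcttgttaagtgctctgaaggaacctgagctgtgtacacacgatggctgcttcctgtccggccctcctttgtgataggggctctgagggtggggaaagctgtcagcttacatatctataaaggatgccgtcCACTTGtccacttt
Slc34a2, chr5:53049103-53049352: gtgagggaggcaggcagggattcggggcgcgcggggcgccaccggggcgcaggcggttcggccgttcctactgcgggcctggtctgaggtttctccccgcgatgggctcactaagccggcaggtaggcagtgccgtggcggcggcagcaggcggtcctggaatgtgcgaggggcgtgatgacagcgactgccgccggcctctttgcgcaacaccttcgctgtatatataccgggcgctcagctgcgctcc

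Of 20 markers of resident alveolar macrophages, 3 were called higher, against 0.45% of all genes, and none lower. DESeq2 called 3 and voom with weights 1. The list's median was 0.36, and 0.38 without mice 1, 3 and 8, with 4 members negative. Ear1 (ENSMUSG00000072601, chromosome 14, 43818765 to 43875517), an eosinophil-associated ribonuclease of these cells, ranged from 0.398 to 4.27 CPM on day 14 (median 2.06) and from 2.25 to 9.3 CPM on day 21 (median 5.05). All 12 day 21 mice lay above the day 14 median, and the log2FC was 1.12 ± 0.268 (SE; edgeR adjusted p = 0.0212), and 0.97 without the 3 mice. Ear1 has close paralogs, so its reads could be split among them. Siglecf, a sialic acid receptor, rose by 0.66 and Plet1, a surface protein of these cells, by 0.65. Marco, a scavenger receptor of the same cells, had 0.68 with a 95% interval from -0.11 to 1.46, and its CPM ranged from 6.06 to 63.8 on day 14 and from 6.04 to 102 on day 21. Ear1 remained 1.34 below CTRL on the log2 scale on day 21 (edgeR adjusted p = 9.86e-06), whereas the list as a whole lay above CTRL. The list's median against CTRL was 0.455 on day 14 and 0.734 on day 21. On day 14, 10 of the 20 genes were called above CTRL and 6 below, and on day 21 these were 13 and 6. Of all genes, 32.4% were called above and 29.9% below CTRL on day 14, and 28.3% and 25.8% on day 21.

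Rufy4 (ENSMUSG00000061815, chromosome 1, 74125541 to 74148223), an adaptor of autophagy and lysosome positioning, ranged from 0.798 to 7.11 CPM on day 14 (median 2.59) and from 2.51 to 13 CPM on day 21 (median 6.84). Its log2FC was 1.14 ± 0.222 (SE; edgeR adjusted p = 0.00586) and 0.91 without mice 1, 3 and 8. The level in CTRL mice had a median of 2.53 CPM, so the gene moved away from CTRL between the days. This was not its first departure, since day 7 mice ranged from 3.32 to 7.35 CPM, above every CTRL mouse (2 to 2.88 CPM). The step from day 21 to day 28 was -0.64 (edgeR adjusted p = 0.157). Cdh16, a cadherin of epithelium, and Trim29, a ubiquitin ligase of epithelia and macrophages, rose by 1.18 and 1.02, and all 12 day 21 mice lay above the day 14 median for Trim29. Without the 3 mice Cdh16 had 1.01 and Trim29 0.89. Fpr1, a receptor for bacterial formyl peptides that is outside the neutrophil list, rose by 0.90. The zinc finger gene Zfp385b rose by 0.85, the long noncoding RNA Crnde by 0.76 and Rab44, a Rab GTPase, by 0.74. Cideb (0.79), Atp6v1c2 (0.72) and Gmpr (0.46) also met the naming rule. Genes on the opposite strand over them held 1369%, 585% and 280% of their own counts, and since the counting's use of strand is not given in the sources used here, these 3 are uncertain. Fzd6, a receptor for Wnt ligands, rose by a small and even 0.27 ± 0.0575 (SE; edgeR adjusted p = 0.0128), from a median of 49.2 to 59.2 CPM, with 0.23 without the 3 mice.

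**Figure D3:**
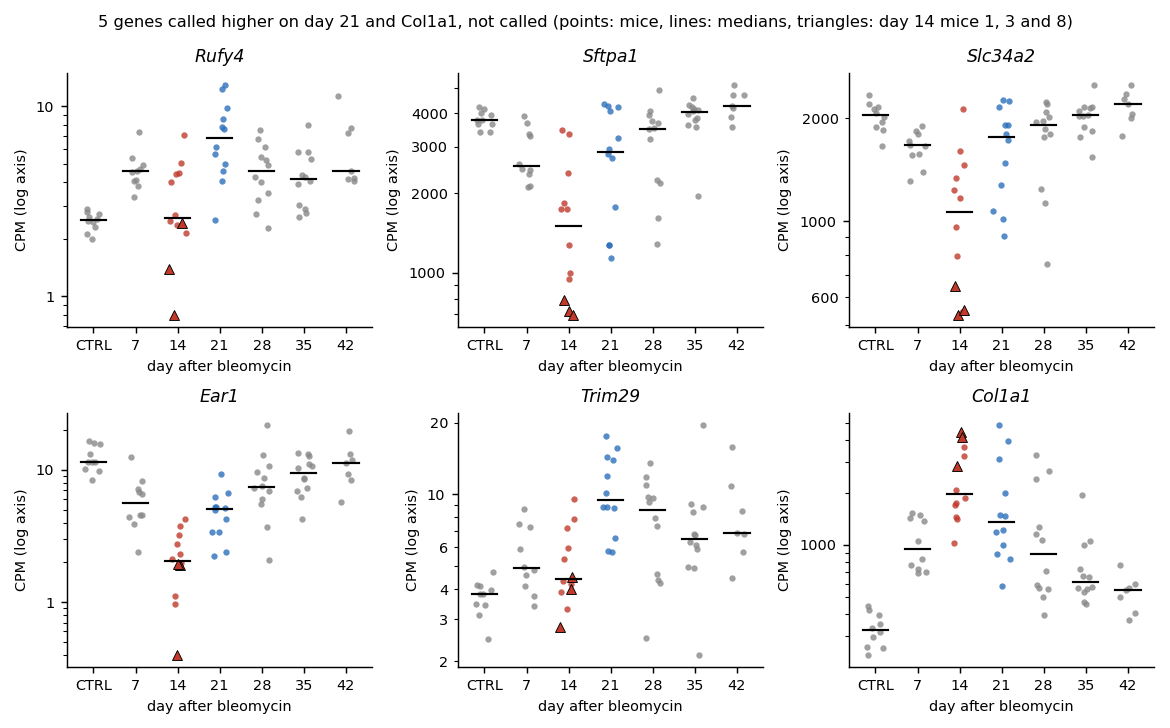
CPM on a log axis in every mouse (points) for 5 genes that were higher on day 21 than on day 14 and for Col1a1, which was not called, in CTRL mice and on each day after BLEO. Lines are group medians and triangles are mice 1, 3 and 8 of day 14. Sftpa1 and Slc34a2 fell from CTRL to day 14 and were higher on day 21, whereas Col1a1 overlapped over almost the whole range on the 2 days.

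Few collagen genes were called between the days. Of 22 collagen chains, edgeR called 0 between the days, with 3 at an unadjusted p under 0.05, DESeq2 called 1 and voom with weights 0, and 19 were called above CTRL on day 14 and 19 on day 21, against 32.4% and 28.3% of all genes, with 1 called below CTRL on each day. The median log2FC of -0.23 was -0.03 without mice 1, 3 and 8. Col1a1, the chief chain of scar collagen, ranged from 1030 to 4465 CPM on day 14 (median 1970) and from 581 to 4910 CPM on day 21 (median 1348). Its log2FC was -0.39 with a 95% interval from -0.97 to 0.19 (edgeR adjusted p = 0.508), which spans 0. Col1a2 had -0.43, Col3a1 -0.33, Col5a1 -0.48, Col5a2 -0.46, Col6a1 -0.29 and Col6a3 -0.45, while Col5a3, Col15a1, Col16a1 and Col18a1 lay between -0.18 and -0.01. Without mice 1, 3 and 8, Col6a3 turned to 0.09, Col5a3 to 0.46, Col16a1 to 0.06 and Col18a1 to 0.08. Col6a1 had the narrowest interval among those named, from -0.47 to -0.11, and missed the threshold after adjustment (adjusted p = 0.0905).

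Other matrix lists had isolated calls by edgeR. Voom with weights called 3 matricellular genes and 0 genes of the elastic fiber and protease lists, where DESeq2 called 1, 1 and 2. Of all genes, 0.45% were called higher and 0.579% lower. Among 22 matricellular genes, Thbs3, a thrombospondin, was higher (0.72 ± 0.156 SE, edgeR adjusted p = 0.0143), although genes on the opposite strand held 23.8% of its counts, and Fn1, fibronectin, had -0.52 (95% interval -1.12 to 0.09). Among 22 elastic fiber and proteoglycan genes Prelp, a small proteoglycan that anchors matrix, rose by 0.33, and Eln, elastin, had -0.76 (adjusted p = 0.213). Of 27 matrix proteases and inhibitors, Mmp3, stromelysin 1, fell by 0.65, the list's median was -0.38, and Mmp2 had -0.15. That median was -0.09 without mice 1, 3 and 8. Enzymes that fold and cross-link collagen had 0 calls among 27 by edgeR, DESeq2 and voom with weights (4 at an unadjusted p under 0.05 by edgeR), and P4ha1 had 0.17.

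Among 30 genes of TGF-beta and activin signaling, edgeR called 0, as did DESeq2 and voom with weights, with 10 at an unadjusted p under 0.05 by edgeR and a median of -0.12 that was -0.03 without the 3 mice. The ligand Tgfb1 had -0.04 and the activin subunit Inhbb -0.52, the receptors Tgfbr1, Tgfbr2, Tgfbr3 and Acvrl1 had -0.13, -0.18, -0.21 and 0.09, and the integrins that free the ligand, Itgav, Itgb5 and Itgb6, had -0.23, -0.10 and 0.16. The mediators Smad2 and Smad3 had -0.03 and -0.08, the inhibitors Smad6 and Smad7 -0.02 and 0.12, and the activin trap Fst -1.13 (95% interval -2.05 to -0.22, adjusted p = 0.183). Response genes Ccn2, Ccn4 and Pmepa1 had -0.49, -0.22 and -0.23, and the Wnt ligand Wnt2 had -0.18. Contractile genes gave 0 of 16 by the same 3 tools (2 at an unadjusted p under 0.05 by edgeR), with Acta2, smooth muscle actin, at -0.16 (95% interval -0.45 to 0.14). Of 20 genes of resting alveolar and adventitial fibroblasts, 1 was called lower, against 0.579% of all genes. This was Pdgfra, the growth factor receptor of these cells, which fell by 0.50. DESeq2 called 1 gene of that list and voom with weights 0. The list's median was 0.08 and Npnt had 0.05. F2r, the thrombin receptor PAR1, fell by 0.41 and was picked with its values in view.

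**Figure D4:**
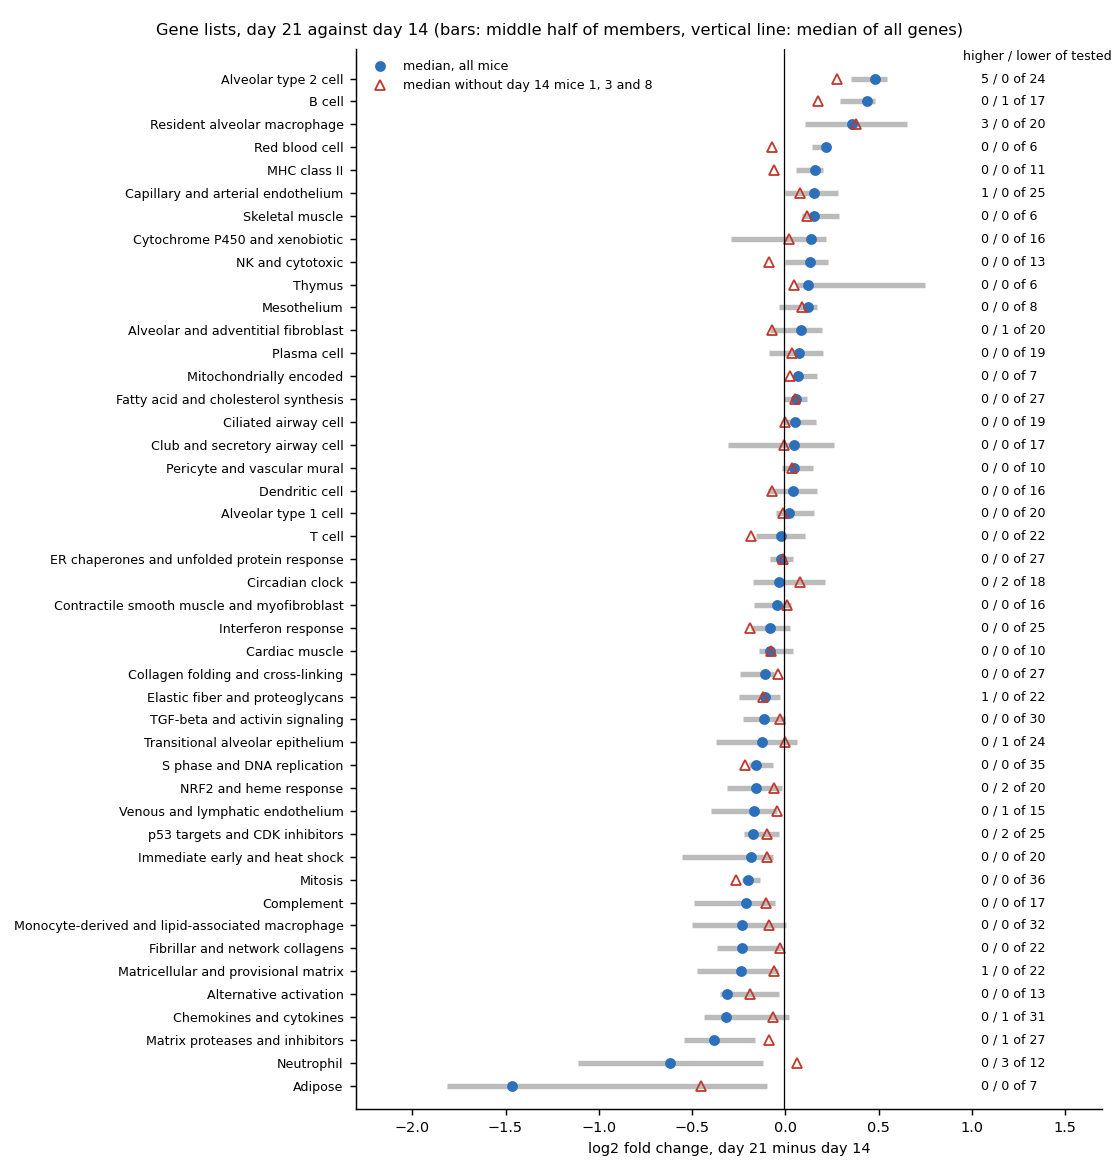
Median log2FC between day 21 and day 14 over the tested members of each gene list (filled circles), with bars from the lower to the upper quartile of the members, the number of members called higher and lower at the right, and the median without mice 1, 3 and 8 of day 14 (open triangles). The vertical line is the median of all 16221 genes. The type 2 cell list had the highest median (0.48) with 5 of 24 genes called, and the neutrophil median moved from -0.62 to 0.06 without the 3 mice.

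Single members were called in other lists by edgeR. Voom with weights called 1 capillary and arterial gene and 0 genes in each other list of this paragraph. DESeq2 called 2 venous and lymphatic and 2 chemokine genes, and as many as edgeR in the rest. Over all genes, 0.45% were called higher and 0.579% lower. Sox17, a transcription factor of arterial endothelium, rose by 0.39 (1 of 25 capillary and arterial genes), and Vcam1, an adhesion molecule for leukocytes, fell by 0.30 (1 of 15 venous and lymphatic genes). Both were evenly shifted, with all 12 mice of each day beyond the other day's median. In the B cell list Cxcl13, above, was the 1 call among 17, whereas the median of the list was 0.44, and 0.17 without the 3 mice. The clock list had 2 falls among 18, the repressors Nfil3 (-1.07) and Cry1 (-0.59), with a median of -0.04, and Arntl had -0.48. The antioxidant and heme list had 2 falls among 20, Cd163 and Srxn1, which repairs peroxiredoxins (-0.33), and Nqo1 had -0.18. In the chemokine list Ccl8 was the 1 call of 31, and Ccl2 had -0.66. Transitional epithelium had 1 call of 24, which was Cdkn1a, and Krt8, its defining keratin, had -0.007 (95% interval -0.23 to 0.21).

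In all other lists, those of cell division apart, edgeR called 0 genes between the days, DESeq2 called 2 immediate early genes and 1 gene each of the fatty acid, cytochrome P450 and thymus lists, voom with weights called 0, and the first tested gene of each is given here with its log2FC. For structural cells these were Pdgfrb (-0.08), Scgb1a1 (0.26), Foxj1 (-0.16), Gpihbp1 (-0.22), Vwf (-0.15) and Ager (0.13), of which Gpihbp1 and Vwf head the endothelial lists above. For leukocytes they were Cd3e (0.12), Ncr1 (-0.001), Jchain (0.05), Flt3 (0.09), H2-Aa (0.05) and Arg1 (-1.16, adjusted p = 0.239). For responses they were Hspa5 (-0.03), Ifit1 (-0.10), C1qa (-0.61), Srebf1 (0.11), Fos (-0.67), Cyp1a1 (-1.36) and mt-Nd1 (0.07). Across these 3 groups of lists the number at an unadjusted p under 0.05 ranged from 0 to 9. For other tissues, Hba-a1 (0.20), Dntt (0.95), Myh6 (-0.08), Ckm (0.10), Adipoq (-1.97) and Msln (-0.23) had adjusted p-values from 0.39 to 0.967. Summed adipose genes ranged from 3.69 to 32.6 CPM on day 14 and from 3.63 to 18.6 CPM on day 21, and mice 1 and 8 of day 14 had 25.1 and 32.6 CPM. Summed cardiac muscle genes ranged from 49.7 to 465 CPM and from 55.9 to 415 CPM. Their part in the results was not tested.

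Genes of cell division were above CTRL on day 21, and part of them were lower on day 28. On day 21, 33 of 35 S phase and 36 of 36 mitosis genes were called higher than in CTRL mice, against 28.3% of all genes. Between day 14 and day 21 edgeR called 0 of 35 genes of S phase and DNA replication (2 at an unadjusted p under 0.05, median -0.15) and 0 of 36 mitosis genes (3 at an unadjusted p under 0.05, median -0.20). The log2FC was nevertheless negative in 34 of the 35 and in 34 of the 36, against 8336 of the 16221 genes tested. Without mice 1, 3 and 8 of day 14 the 2 medians were -0.22 and -0.26. DESeq2 called 0 in both lists, and voom with weights called 3 S phase and 2 mitosis genes. Mki67, a marker of dividing cells, had medians of 96.9 and 65.5 CPM and a log2FC of -0.19 (95% interval -0.60 to 0.23), and Mcm2, a subunit of the replicative helicase, had -0.05. Between day 21 and day 28 the same fit called 118 genes (0.727%), 51 of them lower (0.314%), and 19 of the 35 S phase genes and 2 of the 36 mitosis genes were among those lower, with medians of -0.50 and -0.61. Scaled by library size only, that step had 97 calls, 66 of them higher, against 67 of 118. The helicase subunit Mcm3 ranged from 31.2 to 67.7 CPM on day 21 (median 46) and from 25 to 41.1 CPM on day 28 (median 32.3), a log2FC of -0.54 ± 0.094 (SE; edgeR adjusted p = 0.000445). Its median on day 14 was 47.6 CPM. Cdt1, which licenses replication, had -0.57 over that later step, and Orc1, of the origin recognition complex, had -1.04. These 3 were picked with their values in view. The number of S phase genes lower on day 28 was 0 in the fit of days 21 and 28 alone and between 11 and 23 under the 8 other alternatives, with a median of the list between -0.45 and -0.50 in all 9. For the mitosis genes it was 0 in that fit and with the replicate block, 7 by DESeq2, and 1 or 2 under the 6 others. Collagens had 0 calls in that step too, with a median of -0.29.

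**Figure D5:**
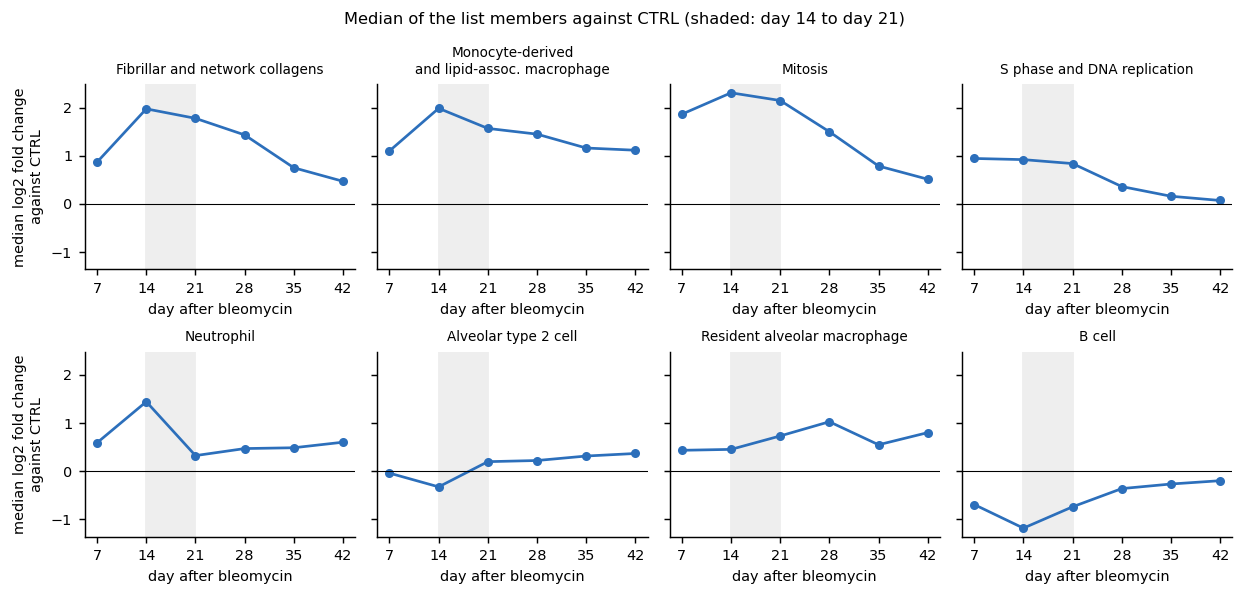
Median log2FC against CTRL over the tested members of 8 gene lists (vertical axis) on days 7 to 42 after BLEO, with the step from day 14 to day 21 shaded. Type 2 cell genes moved from -0.32 to 0.20 within the shaded step, collagens from 1.97 to 1.78, and S phase genes from 0.92 to 0.84 and then to 0.36 on day 28.

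Whether the step from day 14 to day 21 differed from the step from day 21 to day 28 was tested directly in the same fit, as the difference between the steps. edgeR called 0 of 16221 genes (0%), with 768 at an unadjusted p under 0.05. DESeq2 and limma voom with a weight per mouse each called 1 gene, Rufy4, with a difference between the steps of 1.77 and 1.82 (adjusted p = 0.047 and 0.0228). For Mcm3 the difference was 0.56 (edgeR adjusted p = 0.837). The edgeR fit did not call Rufy4 either, so its difference rests on DESeq2 and on weights chosen after seeing the data. By edgeR, a gene called in one step and not in the other is therefore not shown to behave differently in them. This covers Rufy4 and the type 2 cell and S phase genes. Both steps use the day 21 mice, so a chance deviation of that group enters both.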

How the data were processed

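RNA of the inferior lung lobe was sequenced by the authors from directional poly(A) libraries, and aligned with STAR 2.7.0f to the Ensembl GRCm38 genome. The authors deposited raw counts per gene for 55536 genes, without normalization. The counting program and its use of strand are not given in the sources used here. The study's own comparisons used DESeq2.

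From these counts, all 75 mice were fitted in R 4.3.3 with edgeR 4.0.16 (quasi-likelihood F test, 1 mean per group, TMM factors, filterByExpr), which left 16221 genes. The Benjamini-Hochberg adjustment ran over all of them, with a threshold of 0.05. Log2 CPM used a prior count of 2. Standard errors and 95% intervals are those of the fitted log2FC, with the spread between mice taken from all 7 groups. They do not measure the spread of the day 14 and day 21 mice alone. The median SD of log2 CPM was 0.275 on day 14 and 0.169 in CTRL mice, so they may be too narrow for this comparison. Alternatives used DESeq2 1.42.0, limma 3.58.1, other scalings and filters, fewer mice, a fold change threshold and a replicate block. Leaving out mice 1, 3 and 8 of day 14, and the weights per mouse, were chosen after seeing the data. The edgeR fit of days 14 and 21 alone was run on simulated counts with 200 changed genes and no mice that stood apart. It recovered 72% to 94% of the changes, which were 0.5 or 1 on the log2 scale in either direction. It also called 8 of 14612 unchanged genes. On the real counts that fit called 0 genes. The simulation covered neither the fit of all groups nor the difference between the steps. Its changed genes were drawn only from those above a minimum mean count, so the recovery does not cover genes with low counts. Tables were made in Python 3.11.15.

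The comparison, the 45 gene lists (860 of 862 genes found) and the rules were chosen with earlier results of these data known. The rule named 115 genes: the 10 largest changes in each direction with a call, a mean log2 CPM over 1 and 11 of 12 mice of 1 day beyond the other day's median, the 5 lowest p-values in each direction, the first tested gene and up to 4 called genes of each list plus up to 2 against their direction, and list genes named in the study's text. Genes with the lowest p for the difference between steps would have been added, but 0 passed. Genes with a clone's name were passed over. For 1 gene under this rule the result is not reported here. Same-numbered mice were not paired. No pair of libraries within day 14 or day 21 was close enough to be 1 library deposited 2 times, since the smallest chi-square divided by its degrees of freedom was 6.685. CPM compares a gene between mice, not genes with each other, and depth limits genes under about 1 CPM, which is about 10 counts.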

Additional observations from a re-analysis of the deposited data

Results flagged for a closer look

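Among 12 of the genes described in most detail, the 10 CTRL, 10 day 7 and 7 day 42 mice were searched for a single mouse far from the rest of its group. This flagged 6 of 36 groups, and chance flags about 1 group in 20. Mouse 5 of day 7 was flagged for 3 genes, with the highest Lpar1 (69.5 CPM, next 52.3), Cdkn1a (425 CPM, next 325) and Mt2 (340 CPM, next 95). On day 7, mouse 9 had the highest Rufy4 (7.35 CPM, next 5.36). On day 42, mouse 1 had the highest Cd177 (13.7 CPM, next 8.57), and among CTRL mice mouse 2 had the highest Mt2 (13 CPM, next 10.3). None of these mice enters the comparison of day 21 with day 14 other than through the spread that all groups share. Groups of 12, which include days 14 and 21, were not searched.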

How the results depend on the processing

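The number of genes called between day 21 and day 14 was 103 with an absolute log2FC of at least 0.5, 85 with no filter on low counts, 109 with the replicate block, 311 by DESeq2, 0 in the fit of only the 2 days and 0 without day 14 mice 1, 3 and 8. It ranged from 5 to 561 with 1 mouse left out, and stayed within 1.5 times of 167 under the 3 other scalings, the stricter filter and the weights per mouse. Between day 28 and day 21 it was 31 with at least 10 counts in every mouse, 23 with the replicate block, 1 in the fit of only the 2 days and 63 with weights per mouse, against 118. For the difference between the steps it was 1 by DESeq2 and 1 with weights per mouse. List genes called higher (11) numbered 5 with no filter, 18 by DESeq2 and 0 in the fit of only the 2 days and without the 3 mice. Those called lower (14) numbered 9 with no filter, 6 with the replicate block, 22 by DESeq2, 9 with weights per mouse and 0 in the same last 2 settings. The cause of these changes was not tested. The replicate numbers did not pair the mice, as 3 of 12 pairs had a correlation over 0.1 and 0 of 12 mice correlated best with their own number, so the block was not used. No called gene that is named reversed. Of genes not called, these had the opposite sign without mice 1, 3 and 8: Acta2 (0.084), Acvrl1 (-0.011), Arntl (0.159), Ccl2 (0.016), Ccn4 (0.088), Cd3e (-0.016), Ckm (-0.178), Col16a1 (0.055), Col18a1 (0.076), Col5a3 (0.458), Col6a3 (0.089), Flt3 (-0.064), H2-Aa (-0.151), Hba-a1 (-0.063), Krt8 (0.067), Msln (0.05), Myh6 (0.033), Npnt (-0.059), S100a8 (0.327) and Spp1 (0.017). With weights per mouse these were Arntl (0.097), Cd3e (-0.041), Flt3 (-0.086), Gpihbp1 (0.014), H2-Aa (-0.052), Krt8 (0.039), Myh6 (1.497), Npnt (-0.012), S100a8 (0.165) and Smad6 (0.053). Under the setting library size only, the sign turned for Krt8 (0.007), Ncr1 (0.005). Under the setting upper quartile factors, the sign turned for Krt8 (0.005), Ncr1 (0.007). Under the setting no filter on low counts, the sign turned for Ncr1 (0.002). Under the setting replicate block, the sign turned for Myh6 (0.238). With 1 mouse left out, values of both signs occurred for Ckm (-0.11 to 0.718), Col16a1 (-0.095 to 0.036), Col18a1 (-0.115 to 0.033), Col5a3 (-0.431 to 0.05), H2-Aa (-0.037 to 0.155), Jchain (-0.17 to 0.498), Krt8 (-0.072 to 0.037), Myh6 (-0.391 to 0.178), Ncr1 (-0.169 to 0.126), Npnt (-0.008 to 0.106), Smad6 (-0.073 to 0.046) and Tgfb1 (-0.09 to 0.008).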

Other observations

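The B cell, ciliated cell and cytochrome P450 lists, which had 1, 0 and 0 calls by edgeR between the days, were mostly below CTRL on both. Of all genes, 29.9% were called lower than CTRL on day 14 and 25.8% on day 21. B cell genes had a median log2FC against CTRL of -1.18 on day 14 and -0.74 on day 21, with 14 and 13 of 17 genes lower than in CTRL mice, and -0.20 on day 42. Ciliated cell genes were at -1.04 and -1.03, with 18 of 19 lower on both days, and genes of cytochrome P450 and other oxidation enzymes were at -1.62 and -1.47, with 14 of 16 lower on both. T cell genes were near CTRL, with medians of 0.05 and 0.04, and plasma cell genes had 0.33 and 0.24.

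Skeletal muscle and adipose lists had medians of 3.42 and 2.88 against CTRL on day 28, against 0.32 and -2.81 on day 21. High single mice carried these fitted values. Summed skeletal muscle genes had a median of 16 CPM on day 28 and 13.7 CPM on day 21, with highest values of 2516 and 27 CPM, and summed adipose genes had medians of 7.03 and 5.53 CPM, with highest values of 1893 and 18.6 CPM. Of the tested skeletal muscle genes 5 of 6, and of the adipose genes 6 of 7, were called higher on day 28 than on day 21. They are part of the 67 genes (0.413% of those tested) called higher in that step. Also, 2 of 20 genes of resident alveolar macrophages were called higher then, Fabp4 (2.33) and Cidec (2.61), both known as genes of fat cells too, with medians of 16.6 and 4.87 CPM and highest values of 644 and 230 CPM on day 28. The part of adipose tissue in their values was not tested.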
